A study of Mus musculus with 9 samples.

Results

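Lysosomes are the acid compartments in which a proximal tubular cell degrades the proteins and lipids that it takes up from the filtrate, together with its own worn organelles. Their lumen holds peptidases, glycosidases, sulfatases and lipid hydrolases, and heavily glycosylated membrane proteins line the inner face of the limiting membrane. Many of these genes carry the short sequence that the transcription factor Tfeb recognises, and their defects cause the lysosomal storage diseases.

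The 34 genes described here were taken by symbol from the table of proximal tubular expression. They comprised 11 cathepsins and other peptidases, 12 glycosidases and sulfatases, 5 lipid hydrolases and saposins, 5 membrane proteins and the transcription factor Tfeb. All 34 were among the 24421 genes of the table, and all 34 passed the filter on low counts (a level of 0.3 CPM in at least 2 of 9 mice), which left 15583 genes. CPM, the unit of level used throughout, are the estimated counts of a gene scaled to a common library size.

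RNA was sequenced from proximal tubular cells of 9 C57BL/6 mice, 3 in each of 3 groups. All mice carried SLC34a1GCE, a tamoxifen-inducible Cre at the locus of the phosphate transporter gene Slc34a1, with the R26tdTomato reporter, and all received 5 injections of 3 mg tamoxifen from 8 weeks of age. The db/m mice, with 1 mutant copy of the leptin receptor, were non-diabetic controls. The db/db mice, with the mutation on both copies, were obese and diabetic and drank vehicle, and the db/db-dapa mice drank dapagliflozin, an inhibitor of the sodium-glucose transporter SGLT2, at 1.5 mg/kg/day for 8 weeks. The kidneys were digested and the living tdTomato-positive cells of the cortex were sorted. The reporter therefore marked cells in which the Slc34a1 locus was active when tamoxifen was given.

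The libraries held 2733349 to 9033123 estimated counts, and the smallest was db/db replicate 1. The 34 genes took 1.02% to 1.31% of the counts of a mouse, and the lowest count of any of them in any mouse was 17, for Ctss. The 12 proximal tubule markers summed to 17193 to 19073 CPM in db/m mice. Their sums were 19867 to 23829 CPM in untreated and 21596 to 26016 CPM in treated db/db mice, all above every db/m sum. Single markers did not all rise. For db/db against db/m, 8 of the 12 log2 fold changes were above 0 and 4 below. Groups did not overlap for 2 that were higher and 2 that were lower, Ggt1 (-1.03) and Ass1 (-0.21). For db/db-dapa against db/m, 10 were above 0 and 2 below, and for db/db-dapa against db/db 9 were above and 3 below. The 5 principal cell markers of the collecting duct summed to 239 to 763 CPM in db/m mice. Their sums were 252 to 498 CPM in untreated and 148 to 263 CPM in treated db/db mice. Markers of macrophages and dendritic cells summed to 296 to 772 CPM in db/m mice, to 184 to 631 CPM in untreated db/db mice and to 140.2 to 496 CPM in treated ones. Markers of the S3 segment, the last stretch of the proximal tubule, summed to 1393 to 1639.5 CPM in db/m mice, to 154 to 977 CPM in untreated db/db mice and to 710.2 to 1053 CPM in treated ones.

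Transcript length moved with individual libraries. Among 3498 tested genes with the shortest coding transcripts (up to 1962 bases), the median log2 level against the db/m mean was -0.43 in db/db replicate 3, -0.32 in db/db-dapa replicate 2 and -0.36 in db/db-dapa replicate 3. In the 3499 genes with the longest (4589 bases and more), the same medians were 0.41, 0.29 and 0.34. The other 6 mice lay between -0.18 and 0.13 in both sets. In the same 3 libraries the shorter 17 of the 34 genes had medians of -0.46, -0.35 and -0.42 and the longer 17 of 0.13, 0.13 and 0.17. Among the 34 genes such values were not particular to these libraries: the shorter 17 were at -0.30 in db/db replicate 2, and the longer 17 at 0.15 in db/db replicate 1 and 0.12 in db/db-dapa replicate 1. A correction for the length trend was chosen after seeing the data. Its value is given where it moved a named fold change of the 34 genes by over 1.5 times or turned its sign, and for some others.

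Per length of transcript, most of the 34 genes were among the more abundant transcripts of these cells. The mean over the 9 mice exceeded the median of 13986 tested genes with a coding transcript (5.69 CPM per kb) for 30 of the 34, and 16 were in the top 10%. The highest were Cd63, a tetraspanin of late endosomes, at 957 CPM per kb, Psap, the precursor of the saposins that help sphingolipid hydrolases, at 775, and Lamp1, a main glycoprotein of the lysosomal membrane, at 649. The lowest were Scarb2, the receptor that carries glucocerebrosidase to the lysosome, at 4.50 CPM per kb, Sgsh, a heparan sulfatase, at 3.32, and Ctsc, a dipeptidyl peptidase best known from immune cells, at 3.14. By class, the median level was 254 CPM per kb for the membrane proteins, 112 for the peptidases, 44.7 for the lipid hydrolases and 20.9 for the glycosidases and sulfatases. The spread inside each class was wider than these differences, from 4.50 to 957 CPM per kb among the membrane proteins alone. Tfeb itself was at 13.98 CPM per kb.

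**Figure D1:**
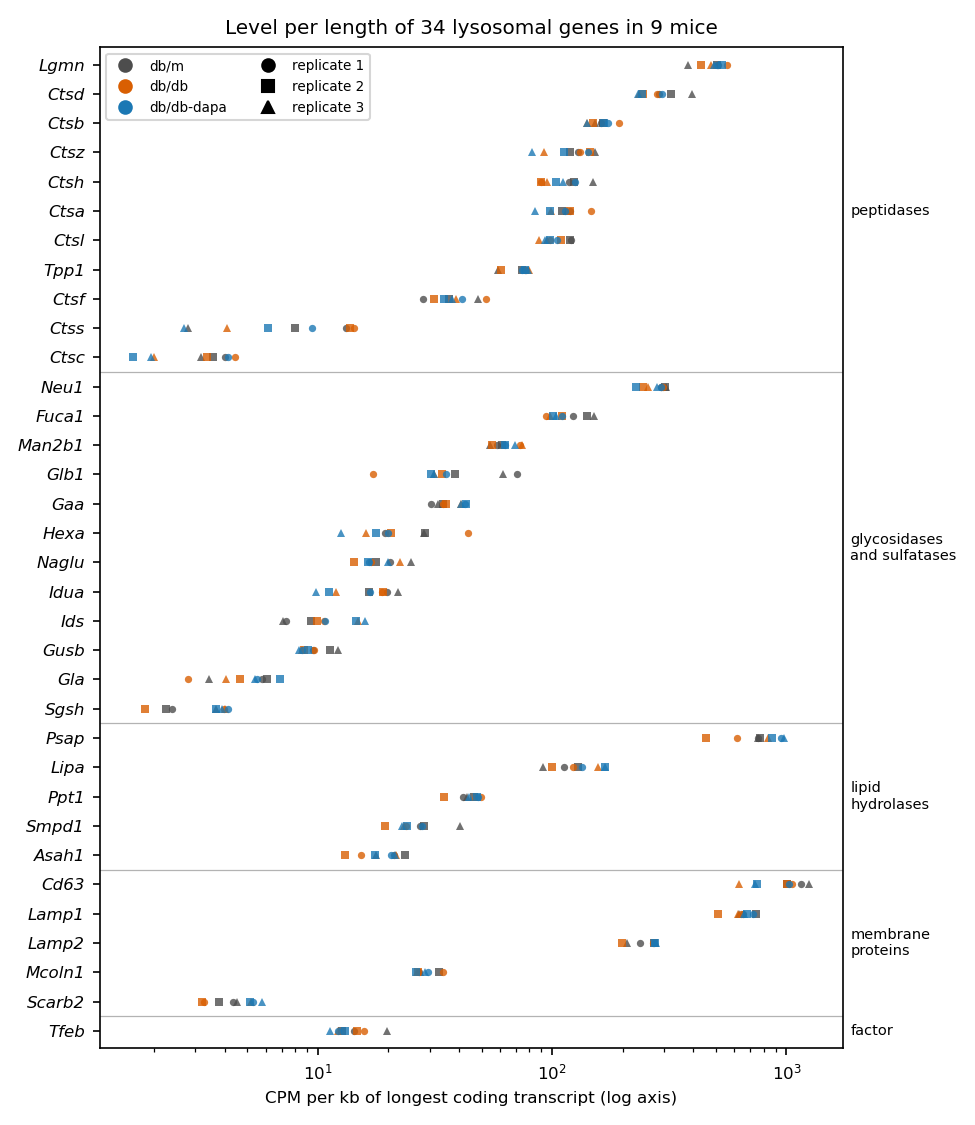
Level of each of the 34 genes in each of the 9 mice, as CPM per kb of the longest coding transcript on a log axis, with the genes ordered by their mean within each class. The mice of a gene lie close together relative to the distance between genes, with the widest spread for Ctss, and Cd63, Psap and Lamp1 lie farthest to the right.

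Tfeb and its relatives bind a short palindrome, which was looked for in the promoters. Of the 34 genes, 31 had an entry in the RefSeq promoter table, all but Ctsb, Ctsh and Asah1. Each promoter ran from 250 bases before to 50 bases after a transcription start (GRCm38.p6). The E-box CACGTG was present in 12 of the 31 (38.7%) and in 2187 of 27025 genes (8.09%). By promoter, that was 33.3% of their 36 and 7.15% of all 32851. Ctsa and Lgmn each also had a promoter without an E-box, for Ctsa at chr2:164832622-164832921, upstream of the one printed below. The longer core TCACGTGA, which contains the E-box, was present in 4 of the 31 (12.9%) and in 304 of all genes (1.12%). Both motifs read the same on either strand. The E-box was found in 5 of 9 peptidase genes, 5 of 12 glycosidase and sulfatase genes, 2 of 5 membrane protein genes and none of the 4 lipid hydrolase genes with an entry. These letters are a description of the window and not evidence of binding. Shown are the 4 genes with the longer core, then Glb1, the gene with the lowest log2 fold change between db/db and db/m mice, and Lamp1, which had 4 E-boxes. A second E-box of Ctsd, within chr7:142388057-142388077 on the minus strand, is not shown. Motif letters are in capitals, and each line runs 5′ to 3′ on the strand of the gene.
Ctsa: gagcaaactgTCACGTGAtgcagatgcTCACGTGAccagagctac
Ctsd: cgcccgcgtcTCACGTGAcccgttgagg
Gla: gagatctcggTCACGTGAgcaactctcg
Gla: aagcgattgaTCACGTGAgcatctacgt
Mcoln1: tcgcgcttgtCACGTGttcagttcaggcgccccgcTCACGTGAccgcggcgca
Glb1: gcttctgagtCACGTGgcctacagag
Lamp1: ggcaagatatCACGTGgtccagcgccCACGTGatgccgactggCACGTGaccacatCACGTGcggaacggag

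In order, these lines lie at chr2:164833750-164833794, plus strand; chr7:142387909-142387936, minus strand; chrX:134601183-134601210, minus strand; chrX:134601216-134601243, minus strand; chr8:3500438-3500490, plus strand; chr9:114401020-114401045, plus strand; and chr8:13159090-13159161, plus strand. The 12 genes with an E-box and the 19 without one had median levels of 38.8 and 44.7 CPM per kb. Their median log2 fold changes between db/db and db/m mice were -0.09 and -0.12, of db/db-dapa against db/m mice -0.02 and -0.25, and of treated against untreated db/db mice 0.04 and 0.01. No difference between these sets was tested.

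The comparison of db/db with db/m mice asked how type 2 diabetes altered the proximal tubular lysosome. None of the 34 genes passed edgeR's quasi-likelihood test, neither at an adjusted p under 0.1 with an absolute log2 fold change over 1, the thresholds of the study (1.24% of all genes tested), nor at an adjusted p under 0.1 alone (1.67%). At an unadjusted p under 0.05 there were 5 of the 34 (14.7%), against 13.7% of all genes. The median log2 fold change of the 34 was -0.13, against 0.02 for all genes, with 21 below and 13 above 0. Single genes were bounded fairly tightly. The 95% interval lay inside a factor of 2 in both directions for 30 of the 34 (88.2%, against 47.75% of all genes). These shares were not matched for level, and most of the 34 genes were among the more abundant transcripts. Groups did not overlap for 1 gene that was higher in db/db (8.28% of all genes) and for 5 that were lower (8.13%). With 3 mice against 3, an exact permutation test of 1 gene cannot give a two-sided p below 0.1.

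Glb1 encodes the lysosomal beta-galactosidase (chr9:114401076-114474898, plus strand, GRCm38) and had the lowest log2 fold change of the 34. It was measured at 169, 91.8 and 148 CPM in the db/m mice, 41.1, 80.8 and 75.3 in the db/db mice and 84.2, 72.99 and 75 in the db/db-dapa mice. All db/db mice lay below all db/m mice, and so did all db/db-dapa mice, although the db/m replicate 2 was near them. The difference between db/db and db/m mice was a log2 fold change of -1.04 with an SE of 0.27 and an edgeR adjusted p of 0.12, and its 95% interval ran from -1.64 to -0.44. Glb1 passed both thresholds with DESeq2, with no filter on low counts, with voom and library weights and without db/m replicate 2, where the log2 fold change was -1.26. Its exons overlap those of Tmppe on the same strand, and the counts of Tmppe were fractional in all 9 mice, so that reads may have been shared between them. Tmppe had a log2 fold change of -0.24 with an adjusted p of 0.864 by edgeR.

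Ctsh, Fuca1 and Smpd1 were also lower in every db/db than in every db/m mouse without passing the test. Ctsh, a cysteine protease with aminopeptidase activity (chr9:90054152-90076089, plus strand), was at 190.4, 201 and 243 CPM in the db/m mice, 145, 145 and 154 in the db/db mice and 202, 168 and 179.5 in the db/db-dapa mice. The db/db mice were tightly grouped and the db/db-dapa mice lay above all of them. The difference between db/db and db/m mice was a log2 fold change of -0.51 with an SE of 0.16 and an edgeR adjusted p of 0.199, and with the length trend removed it was -0.34. Fuca1, the alpha-fucosidase that trims glycoproteins (chr4:135920735-135940311, plus strand), was at 309, 356 and 379.7 CPM in the db/m mice, 237, 278 and 246 in the db/db mice and 278, 255 and 261 in the db/db-dapa mice. Both diabetic groups lay below the db/m range (log2 fold change -0.46, SE 0.16, edgeR adjusted p 0.233). Smpd1, the acid sphingomyelinase (chr7:105554360-105558389, plus strand), was at 65.8, 68.7 and 97.9 CPM in the db/m mice, 57.1, 46.8 and 56.1 in the db/db mice and 67.4, 58.03 and 55.1 in the db/db-dapa mice. Here the db/db-dapa mice overlapped the db/m mice, and the difference between db/db and db/m was a log2 fold change of -0.54 with an SE of 0.19 and an edgeR adjusted p of 0.246. Without db/m replicate 3, the highest of the db/m mice, it was -0.34.

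Ctsd, the main aspartic protease of the lysosome, was at 607, 681 and 844 CPM in the db/m mice, 598, 519.6 and 499 in the db/db mice and 629, 516 and 494 in the db/db-dapa mice. The db/db mice were below the db/m mice by a narrow margin (log2 fold change -0.40, SE 0.18, edgeR adjusted p 0.372), and db/db-dapa mice overlapped both. Fuca1 and Ctsd were outside the rule for naming genes and were singled out after their values were seen.

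Ids, the iduronate sulfatase of heparan and dermatan sulfate breakdown (chrX:70343069-70365084, minus strand), was the only one of the 34 that was higher in every db/db than in every db/m mouse. It was measured at 36.4, 46.6 and 35.3 CPM in the db/m mice, 52.7, 49.4 and 74.01 in the db/db mice and 53.1, 72.1 and 78.7 in the db/db-dapa mice. The highest values were those of db/db replicate 3 and of db/db-dapa replicates 2 and 3, the 3 libraries in which long transcripts were high, and the longest coding transcript of Ids has 4972 bases. The difference between db/db and db/m mice was a log2 fold change of 0.58 with an SE of 0.22 and an edgeR adjusted p of 0.269, which was 0.42 with the length trend removed and 0.36 without db/db replicate 3.

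Smpd1 was the lowest lipid hydrolase gene. The highest was Lipa, the acid lipase that frees cholesterol from lipoproteins (log2 fold change 0.20, SE 0.21, edgeR adjusted p 0.725). Among membrane proteins Lamp2 was highest (log2 fold change 0.05, SE 0.18, edgeR adjusted p 0.932; -0.00071 with the length trend removed) and Cd63 lowest (log2 fold change -0.34, SE 0.23, edgeR adjusted p 0.553), and the value of Cd63 was -0.14 with the length trend removed. The longest coding transcript of Cd63, at 1109 bases, was the shortest of the 34. Mcoln1, the calcium channel of the lysosomal membrane, had a log2 fold change of -0.0024 with an SE of 0.17 and an edgeR adjusted p of 0.998, and 0.09 after the same correction. For Tfeb there was a log2 fold change of -0.14 with an SE of 0.20 and an edgeR adjusted p of 0.793, or -0.07 after the correction, with per-mouse levels of 33.5, 29.7 and 46.2 CPM in the db/m mice, 36.7, 34.4 and 28.5 in the db/db mice and 28.7, 30.6 and 26.4 in the db/db-dapa mice. The 3 groups overlapped for Tfeb and Mcoln1.

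**Figure D2:**
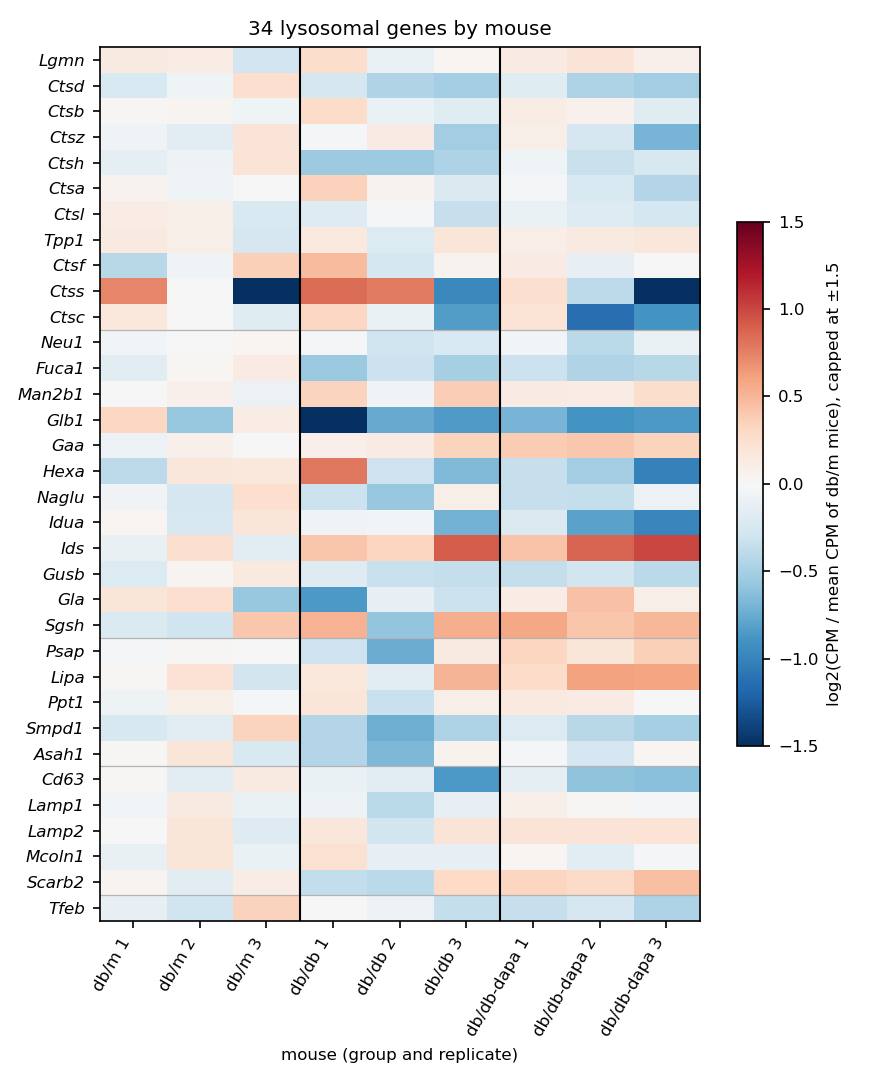
Level of each of the 34 genes in each mouse as log2 of its CPM over the mean CPM of the db/m mice, with colours capped at 1.5 in both directions. Glb1 is below the db/m mean in all 6 diabetic mice, and Ids is above it in all 6, while Ctss varies inside every group.

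The comparison of db/db-dapa with db/m mice asked what distinguished treated diabetic tubules from non-diabetic ones. It shares the db/m mice with the comparison above. Again none of the 34 genes passed either rule, against 1.05% of all genes with both thresholds and 1.31% at the adjusted p alone. At an unadjusted p under 0.05 there were 6 of the 34 (17.6%), against 18.2% of all genes. The median log2 fold change was -0.12 for the 34 genes and -0.02 for all genes. Groups did not overlap for 8 genes that were higher in db/db-dapa (14.4% of all genes) and for 3 that were lower (13.7%). The 8 were Ids, Gaa, Sgsh, Man2b1, Psap, Lipa, Lamp2 and Scarb2, and the 3 were Glb1, Fuca1 and Gusb.

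Ids had the highest value (log2 fold change 0.79, SE 0.22, edgeR adjusted p 0.14, 95% interval 0.31 to 1.26), and its value was 0.56 with the length trend removed. Glb1 again had the lowest value (log2 fold change -0.82, SE 0.27, edgeR adjusted p 0.195). Over 20 alternatives, the adjusted p was under 0.1 in 5 for Ids and in 4 for Glb1. For Ids these included the fit without db/db-dapa replicate 1, in which 290 genes of the table had an adjusted p under 0.1. Gaa, the acid alpha-glucosidase that degrades glycogen, was at 111, 124 and 118 CPM in the db/m mice, 124, 128 and 149 in the db/db mice and 154, 156 and 149 in the db/db-dapa mice. The treated mice were close to each other and above every db/m mouse (log2 fold change 0.38, SE 0.15, edgeR adjusted p 0.237). Lipa was at 332, 383 and 271 CPM in the db/m mice, 365, 296 and 468 in the db/db mice and 397, 500.2 and 497 in the db/db-dapa mice, with all treated mice above all db/m mice and the db/db mice overlapping both (log2 fold change 0.50, SE 0.21, edgeR adjusted p 0.254).

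Sgsh was higher in treated than in db/m mice by a small gap (log2 fold change 0.50, SE 0.30, edgeR adjusted p 0.377), and so was Man2b1, the lysosomal alpha-mannosidase (log2 fold change 0.17, SE 0.17, edgeR adjusted p 0.586). With the length trend removed these values were 0.32 and 0.05. Gusb, the beta-glucuronidase, was lower (log2 fold change -0.34, SE 0.16, edgeR adjusted p 0.292), as was Fuca1 (log2 fold change -0.40, SE 0.16, edgeR adjusted p 0.237). These 4, with Gaa, Psap and Lamp2, were named after their values were seen. The peptidases, none of which had such a gap, ranged from Ctsc (log2 fold change -0.49, SE 0.38, edgeR adjusted p 0.491) to Tpp1, a tripeptidyl peptidase (log2 fold change 0.13, SE 0.17, edgeR adjusted p 0.69; 0.05 with the length trend removed). Ctsc was at -1.003 without db/db-dapa replicate 1 and at -0.24 without db/db-dapa replicate 2.

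At the membrane, Scarb2 was the highest (log2 fold change 0.36, SE 0.21, edgeR adjusted p 0.373) and its value was 0.15 with the length trend removed, its longest coding transcript having 4698 bases. Cd63 was the lowest (log2 fold change -0.44, SE 0.23, edgeR adjusted p 0.316), with -0.10 after that correction. Lamp2 had a log2 fold change of 0.20 with an SE of 0.18 and an edgeR adjusted p of 0.555, and 0.11 after it. Smpd1 was the lowest lipid hydrolase gene (log2 fold change -0.36, SE 0.19, edgeR adjusted p 0.319; -0.17 without db/m replicate 3). Mcoln1 had a log2 fold change of -0.05 with an SE of 0.17 and an edgeR adjusted p of 0.899, turning to 0.06 with the length trend removed, and Tfeb a log2 fold change of -0.35 with an SE of 0.20 and an edgeR adjusted p of 0.348.

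**Figure D3:**
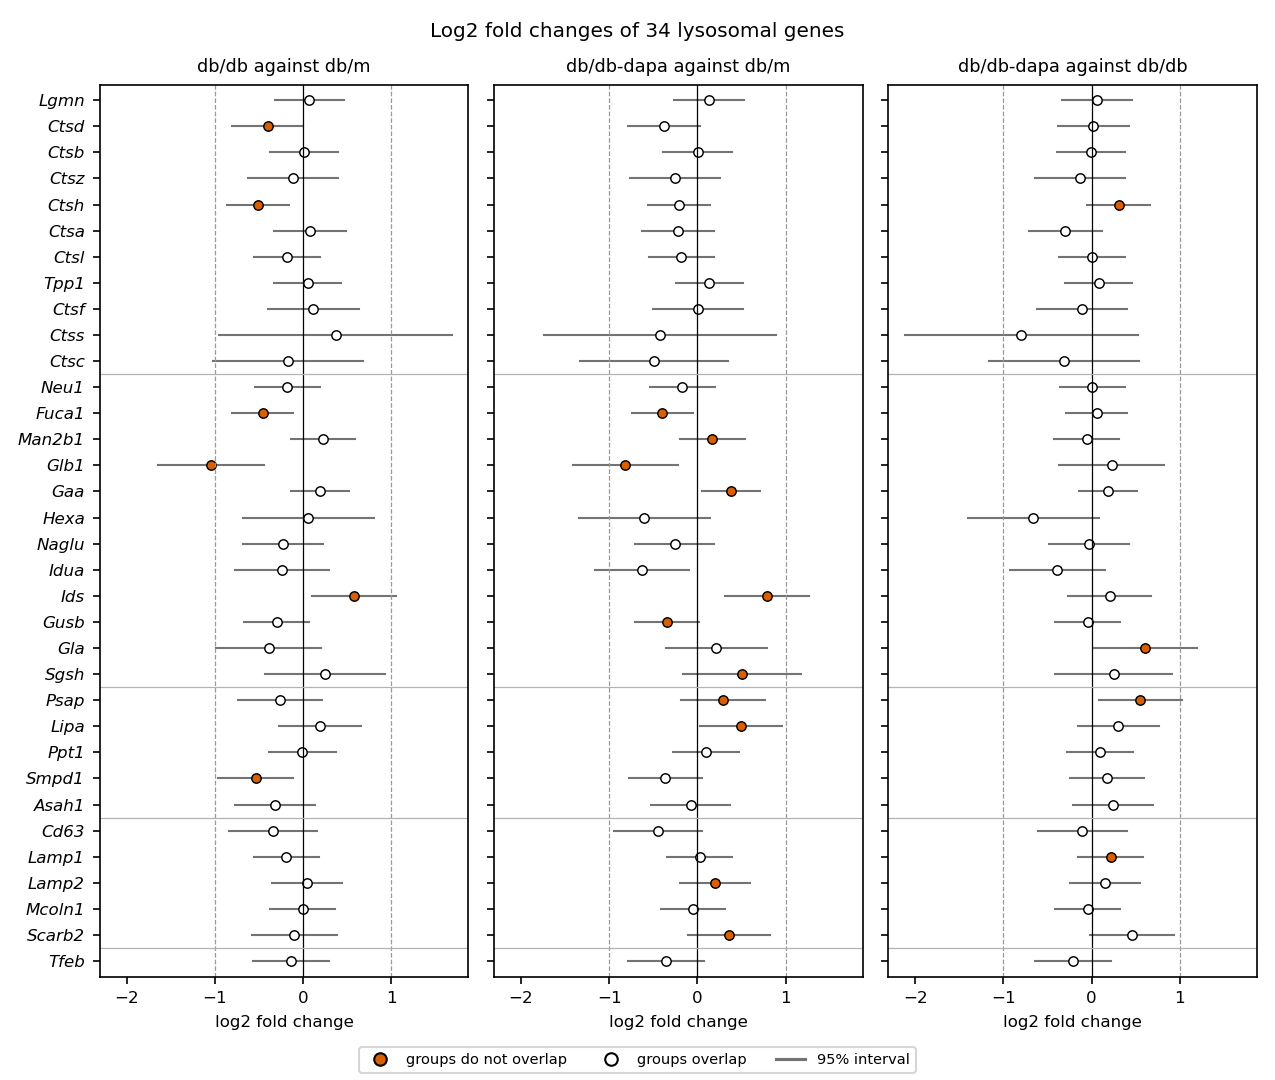
Log2 fold change of each of the 34 genes (circle) with its 95% interval (line) from edgeR in the 3 comparisons, with dashed lines at a change by a factor of 2. Orange circles mark genes whose groups do not overlap; the interval of Glb1 lies below 0 in both comparisons with db/m mice.

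The comparison of db/db-dapa with db/db mice asked what dapagliflozin altered in diabetic tubules. It shares db/db mice with the first comparison and db/db-dapa mice with the second. No gene of the whole table passed, so that both backgrounds were 0% with the 2 thresholds and 0% at the adjusted p alone, and the lowest adjusted p among the 34 was 0.854 by edgeR. At an unadjusted p under 0.05 there were 2 of the 34 (5.88%), against 808 of all genes (5.19%); with DESeq2, 13 genes of the table and none of the 34 passed both thresholds. The median log2 fold change was 0.04 for the 34 and -0.01 for all genes. Groups did not overlap for 4 genes that were higher in treated mice, Psap, Gla, Ctsh and Lamp1 (4.9% of all genes), and for none that was lower (5.29%).

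Psap (chr10:60277627-60302597, plus strand) was measured at 2003, 2044 and 2016 CPM in the db/m mice, 1631, 1204 and 2219 in the db/db mice and 2527, 2297 and 2597 in the db/db-dapa mice. The db/m values were almost equal, the db/db values were spread over a wide range with replicate 3 the highest, and all 3 treated mice lay above all other mice. The difference between treated and untreated db/db mice was a log2 fold change of 0.55 with an SE of 0.22 and an edgeR adjusted p of 0.854, and its 95% interval ran from 0.08 to 1.03. Scarb2 (chr5:92441314-92506833, minus strand) had a like pattern at low level, with 20.3, 17.8 and 21.3 CPM in the db/m mice, 15.3, 15.01 and 24.4 in the db/db mice and 24.8, 24.2 and 27.1 in the db/db-dapa mice. Its db/db replicate 3 lay inside the treated range (log2 fold change 0.46, SE 0.22, edgeR adjusted p 0.854). Without db/db replicate 3 the log2 fold changes were 0.82 for Psap and 0.76 for Scarb2, with adjusted p of 0.0834 and 0.0969 by edgeR. They passed at the adjusted p alone, as did 419 genes of the table in that fit, where the fit with all mice called none. Without db/db replicate 2 the log2 fold changes were 0.36 for Psap and 0.33 for Scarb2.

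Gla, the alpha-galactosidase A that is deficient in Fabry disease (chrX:134588149-134601125, minus strand), was at 18.3, 19.2 and 10.9 CPM in the db/m mice, 8.84, 14.8 and 12.9 in the db/db mice and 17.5, 21.8 and 17.1 in the db/db-dapa mice. All treated mice were above all db/db mice while both overlapped the db/m mice (log2 fold change 0.61, SE 0.27, edgeR adjusted p 0.854). The count of Gla in db/db replicate 1, the shallowest library, was 26. Ctsh was higher in treated than in db/db mice (log2 fold change 0.31, SE 0.16, edgeR adjusted p 0.854). Lamp1 was higher by a narrow margin, with 1457, 1649.5 and 1395 CPM in the db/m mice, 1424, 1138 and 1382 in the db/db mice and 1596, 1518 and 1469 in the db/db-dapa mice (log2 fold change 0.22, SE 0.17, edgeR adjusted p 0.854), and was named after its values were seen.

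Hexa, the alpha subunit of beta-hexosaminidase, was the lowest glycosidase gene, at 38.6, 57.1 and 56.4 CPM in the db/m mice, 87.3, 41.02 and 31.95 in the db/db mice and 39.9, 35.2 and 25 in the db/db-dapa mice. A single high value, that of db/db replicate 1, set its db/db mean apart (log2 fold change -0.66, SE 0.34, edgeR adjusted p 0.854; -0.13 without that mouse). Ppt1, a thioesterase that removes palmitate from proteins, had the smallest difference of the lipid hydrolases (log2 fold change 0.10, SE 0.17, edgeR adjusted p 0.919). Cd63 had a log2 fold change of -0.10 with an SE of 0.23 and an edgeR adjusted p of 0.94, which turned to 0.04 with the length trend removed. Mcoln1 had a log2 fold change of -0.04 with an SE of 0.17 and an edgeR adjusted p of 0.964 and Tfeb a log2 fold change of -0.21 with an SE of 0.20 and an edgeR adjusted p of 0.859.

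**Figure D4:**
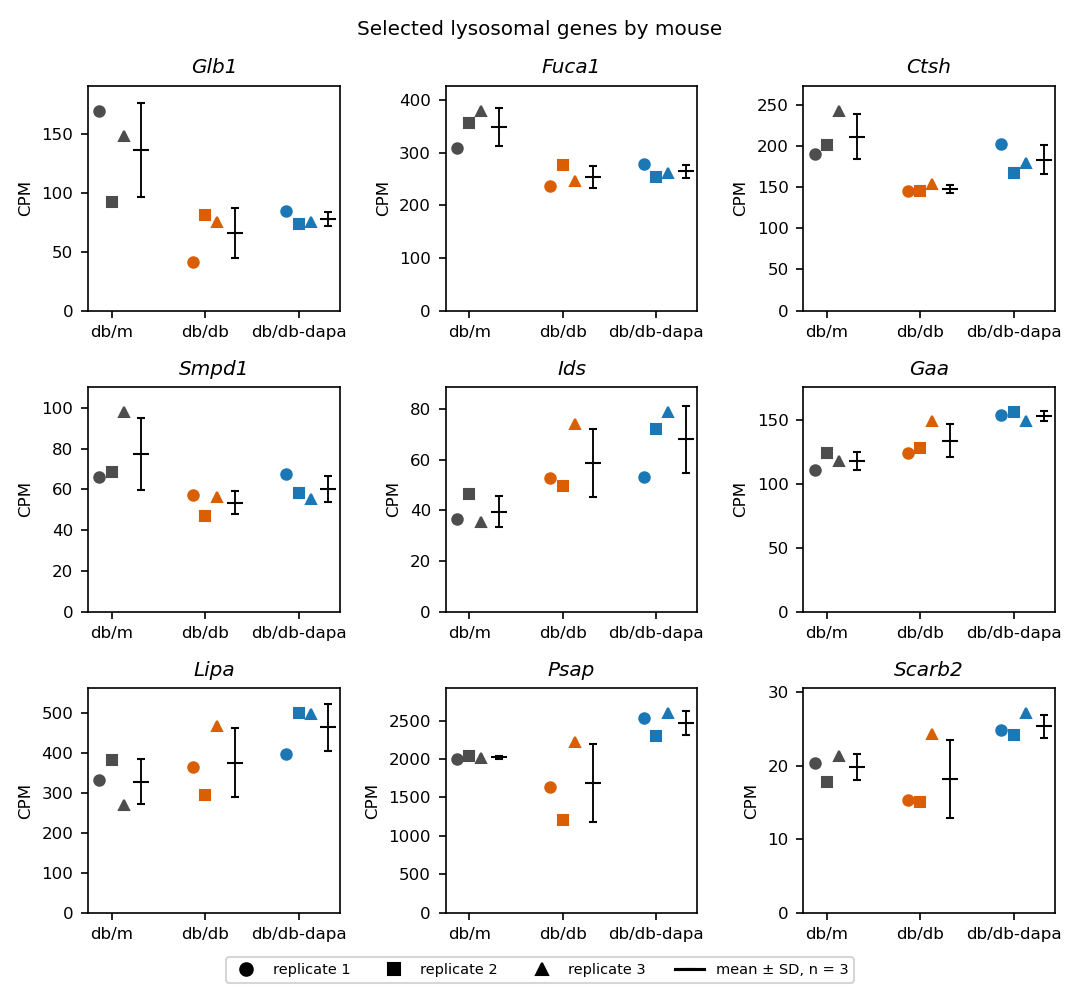
CPM of 9 genes in each mouse, with symbols for the replicates and the mean ± SD of each group (n = 3) beside them; every axis starts at 0. Glb1, Fuca1, Ctsh and Smpd1 are lower in db/db than in db/m mice, and db/db replicate 3 (triangle) lies near the treated mice for Ids, Gaa, Lipa, Psap and Scarb2.

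One untreated mouse resembled the treated ones in many of these genes. The value of db/db replicate 3 lay inside the range of the 3 treated mice for 22 of the 34 genes (64.7%; all genes 47.5%), against 7 for replicate 1 (20.6%; all genes 29.4%) and 9 for replicate 2 (26.5%; all genes 34.2%). This mouse shared the shift with transcript length with db/db-dapa replicates 2 and 3. Its S3 markers summed to 977 CPM, also nearer to the treated mice than those of db/db replicates 1 and 2, at 154 and 272 CPM. Most of that sum came from Atp11a (636 CPM) and Slc5a1 (171 CPM). Slc7a13 was at 9.52, 7.40 and 100 CPM in untreated replicates 1 to 3, against 84.7, 35.1 and 125 CPM with treatment. Acsm3 was at 12.9, 34.8 and 69.0 CPM, against 48.3, 74.0 and 118 CPM. All 4 were highest in replicate 3 among the untreated mice, but Slc22a7 and Cyp7b1 were not. The anion transporter gene Slc22a7 was at 0.340, 0.200 and 0.253 CPM, and Cyp7b1 at 2.04, 1.40 and 0.884 CPM. Of the 6 S3 markers, 5 were below 0 in db/db against db/m mice and 2 passed, Slc22a7 and Acsm3 (log2 fold changes -7.66 and -2.68, edgeR adjusted p 5.69e-06 and 0.03; Acsm3 did not pass without db/db replicate 2), while Slc5a1 was at 0.38. The part of length and of segment in this likeness was not tested; with the trend removed, the treated-to-untreated log2 fold changes were 0.54 for Psap, 0.41 for Scarb2 and 0.57 for Gla.

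Between treated and untreated db/db mice the classes had different medians, a difference that was not tested. All 5 lipid hydrolase genes were above 0, with a median log2 fold change of 0.24, against 0.15 for the membrane proteins (3 of 5 above 0), 0.03 for the glycosidases and sulfatases (7 of 12) and -0.01 for the peptidases (5 of 11). Between db/db and db/m mice the medians were -0.26 for the lipid hydrolases, -0.21 for the glycosidases and sulfatases, -0.10 for the membrane proteins and 0.01 for the peptidases. In treated against non-diabetic mice they were 0.09, -0.21, 0.03 and -0.21 in the same order. Counts of the lipid hydrolase genes, most of them from Psap, made up 20.7% to 21.1% of the counts of the 34 in db/m mice, 24.3% to 27.4% in db/db-dapa mice, and 18.3%, 16.4% and 25.5% in the db/db mice. The 2 diabetic groups thus overlapped on this measure through db/db replicate 3 alone.

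Ctss and Ctsc, whose products serve antigen presentation and the activation of granule proteases in immune cells, had the widest intervals of the 34. Ctss was measured at 17.95, 10.8 and 3.77 CPM in the db/m mice, 19.4, 18.6 and 5.56 in the db/db mice and 12.8, 8.27 and 3.62 in the db/db-dapa mice, and replicate 3 was the lowest of each group. The summed level of the 17 macrophage and dendritic markers was likewise lowest in replicate 3 of each group, at 296, 184 and 140.2 CPM. In db/db-dapa mice 15 of these 17 markers had a log2 fold change below 0 against db/m mice and 16 of 17 against db/db mice, and none passed the test in any comparison. The markers with most counts were Cd74 and the class II genes H2-Eb1 and H2-Ab1, and Aif1 was at 0 in db/m replicate 3. Ctss had a log2 fold change of 0.37 with an SE of 0.60 and an edgeR adjusted p of 0.82 between db/db and db/m mice and a log2 fold change of -0.80 with an SE of 0.60 and an edgeR adjusted p of 0.854 between treated and untreated db/db mice. Ctsc was at 12.9, 11.5 and 10.2 CPM in the db/m mice, 14.3, 10.8 and 6.44 in the db/db mice and 13.3, 5.25 and 6.22 in the db/db-dapa mice. The part of immune cells in these values was not tested, and fewer cells of a type cannot be told apart from less RNA per cell.

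**Figure D5:**
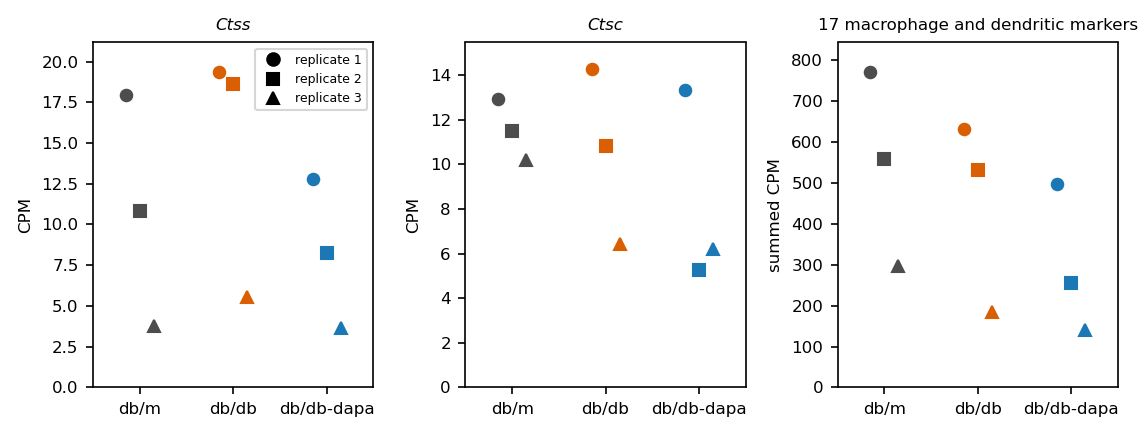
CPM of Ctss and Ctsc and the summed CPM of the 17 macrophage and dendritic markers in each mouse, by group, with symbols for the replicates. The triangles (replicate 3) are the lowest of each group for Ctss and for the markers.

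The other 7 peptidase genes overlapped between the groups in every comparison. Ctsb, an abundant cysteine protease, was at 759 ± 30.4 CPM (db/m), 764 ± 133 CPM (db/db) and 761 ± 81.6 CPM (db/db-dapa) (SD, n = 3 here and below). Ctsl, the endopeptidase cathepsin L, was at 689.5 ± 88.1 CPM (db/m), 606 ± 66.9 CPM (db/db) and 608 ± 34.96 CPM (db/db-dapa). Ctsa, which shields beta-galactosidase and the sialidase Neu1 in a complex, was at 419 ± 16.9 CPM (db/m), 443 ± 85.5 CPM (db/db) and 360.2 ± 52.4 CPM (db/db-dapa). Ctsf, a further cysteine protease, was at 74.5 ± 19.9 CPM (db/m), 80.98 ± 21 CPM (db/db) and 74.6 ± 6.43 CPM (db/db-dapa), and Ctsz, a carboxypeptidase, at 192 ± 25.2 CPM (db/m), 177 ± 39.02 CPM (db/db) and 161 ± 42.7 CPM (db/db-dapa). Lgmn, the asparaginyl endopeptidase that matures other cathepsins, was at 926 ± 144 CPM (db/m), 973 ± 126 CPM (db/db) and 1015 ± 41.3 CPM (db/db-dapa). Tpp1 was at 248 ± 34.3 CPM (db/m), 258 ± 36.4 CPM (db/db) and 272 ± 7.53 CPM (db/db-dapa). No value of these genes passed the test, and their log2 fold changes between db/db and db/m mice ran from -0.19 for Ctsl to 0.12 for Ctsf. With the length trend removed, Ctsl was at -0.37 and Ctsf at 0.23. In treated against db/m mice Ctsl was at -0.18, and at -0.47 with the trend removed (edgeR adjusted p 0.282).

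Among glycosidases and sulfatases, Neu1, the lysosomal sialidase and partner of Ctsa and Glb1, was at 743 ± 20.9 CPM (db/m), 656 ± 68.6 CPM (db/db) and 659.9 ± 85.1 CPM (db/db-dapa). Unlike Glb1, Neu1 and Ctsa overlapped between db/db and db/m mice, with log2 fold changes of -0.18 and 0.08. With the length trend removed the value of Ctsa was 0.035. The difference between the 3 genes was not tested. Naglu, which removes N-acetylglucosamine from heparan sulfate, was at 53.8 ± 9.54 CPM (db/m), 45.6 ± 10.7 CPM (db/db) and 44.99 ± 5.03 CPM (db/db-dapa). Idua, the iduronidase that acts after Ids, was at 68.7 ± 9.89 CPM (db/m), 58.4 ± 14.1 CPM (db/db) and 44.4 ± 12.9 CPM (db/db-dapa). Its log2 fold change of db/db-dapa against db/m mice was -0.63 (edgeR unadjusted p 0.0249, adjusted p 0.23). Ids and Idua, consecutive steps on the same substrate, thus had values of opposite sign, neither of which passed. Idua was outside the rule for naming genes and was singled out after its values were seen. The other members of the class were Man2b1 at 221 ± 13.2 CPM (db/m), 259 ± 40.7 CPM (db/db) and 249 ± 14.98 CPM (db/db-dapa), Gusb at 29.6 ± 3.55 CPM (db/m), 24.1 ± 1.53 CPM (db/db) and 23.3 ± 1.04 CPM (db/db-dapa) and Sgsh at 12.1 ± 3.42 CPM (db/m), 14.3 ± 5.45 CPM (db/db) and 17 ± 1.01 CPM (db/db-dapa). The lowest estimated count of Sgsh in any mouse was 40.

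Of the lipid hydrolases, Asah1, the acid ceramidase, was at 57.8 ± 8.11 CPM (db/m), 46.2 ± 12.3 CPM (db/db) and 54.8 ± 5.65 CPM (db/db-dapa), and Ppt1 was at 104 ± 6.13 CPM (db/m), 104 ± 18.95 CPM (db/db) and 111 ± 5.61 CPM (db/db-dapa). The membrane proteins Lamp2 and Cd63 were at 862 ± 112 CPM (db/m), 890.1 ± 153 CPM (db/db) and 989 ± 6.89 CPM (db/db-dapa) and at 1260.5 ± 133 CPM (db/m), 996 ± 261 CPM (db/db) and 926 ± 181 CPM (db/db-dapa). Mcoln1 was at 59.99 ± 7.13 CPM (db/m), 60.1 ± 8.88 CPM (db/db) and 58.1 ± 3.69 CPM (db/db-dapa). Exons of Ctsa, Ctsb, Ctsz, Hexa, Sgsh, Idua, Ppt1 and Lamp1 overlap those of a gene on the other strand, and those of Ctsd and Ctsl a gene model on the same strand. Whether the counting used strand is not given in the sources used here, so reads of such pairs may not be told apart.

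The wider lysosome was examined with 6 further lists. Of 34 other lysosomal hydrolases, 1 passed, in db/db against db/m mice, where 1.24% of all genes did: Galns, which removes sulfate from keratan and chondroitin sulfate (chr8:122578242-122611463, minus strand). It fell in db/db mice, from 144, 159 and 173 CPM in the db/m mice to 54.7, 63.02 and 99.02 in the db/db mice (log2 fold change -1.12, SE 0.22, edgeR adjusted p 0.0412), with 101, 88.9 and 107 in the db/db-dapa mice (log2 fold change -0.67, SE 0.22, edgeR adjusted p 0.183 against db/m). Every diabetic mouse, treated or not, was below every db/m mouse. Galns did not pass in 6 of 20 alternatives, among them those without db/m replicate 1, 2 or 3 or db/db replicate 2, with adjusted p of up to 0.133. None passed of 28 other membrane proteins, 23 subunits of the proton pump V-ATPase, 22 genes of enzyme sorting, 18 relatives of Tfeb and parts of the lysosomal mTORC1 machinery, and the 2 cystatin genes, of 3 listed, that could be tested. The median log2 fold changes between db/db and db/m mice were -0.08 for the other hydrolases, 0.07 for the membrane proteins, -0.19 for the V-ATPase, 0.14 for sorting, -0.01 for the Tfeb relatives and -0.34 for the 2 cystatins. In treated against non-diabetic mice the V-ATPase list had a median of -0.34, with 18 of 23 below 0, 8 at an unadjusted p under 0.05 (34.8%, against 18.2% of all genes) and none that passed after adjustment in edgeR. The 2 cystatins had a median of -0.69 and both an unadjusted p under 0.05, and neither passed. In the same comparison all 3 markers of intercalated cells, a collecting duct type rich in V-ATPase, were below 0 with a median of -1.20, and all 5 of principal cells with a median of -1.21. The intercalated markers summed to 36.3 to 106 CPM in db/m, 32.4 to 60.8 CPM in untreated and 28.6 to 38.3 CPM in treated db/db mice. Their part in the V-ATPase values was not tested, and neither was that of transcript length in the V-ATPase and cystatin values.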

How the data were processed

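RNA-seq of sorted tdTomato-positive cells was analysed in 9 mice, 3 per group, grouped by sample title. TruSeq stranded mRNA libraries were sequenced in single reads. The submitters' processing notes name TopHat2 2.0.13, Bowtie2 2.2.3, SAMtools 0.1.19 and Cufflinks 2.2.1 with mm10. The deposited table is named for FPKM, but it holds estimated counts that the authors made, of which 90.949% are whole; how these were derived is not given in the sources used here. Values were rounded to whole numbers, filtered at 0.3 CPM in at least 2 mice, scaled by TMM and tested by edgeR 4.0.16 (quasi-likelihood, R 4.3.3) on all 9 mice without covariates, with Benjamini-Hochberg adjustment over 15583 genes. Intervals are 95% intervals of single genes, not adjusted for their number. Depth (2733349 to 9033123 counts per mouse) limits the genes with few counts. DESeq2 1.42.0, limma 3.58.1, other scalings and filters, a replicate block and leaving out each mouse were alternatives. Steps were tested on simulated data. Transcript lengths and coordinates came from GENCODE M21 (GRCm38). The length trend was a smooth curve of level on transcript length in each mouse, taken into the offset of edgeR.

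Fold changes are given, in each comparison, for genes that passed, for the highest and lowest of each class, and for Tfeb and Mcoln1; levels per length are named for the 3 highest and 3 lowest. In the other lists genes that passed are named, and Dpp7, Ppt2, Hyal1, Igf2r and M6pr were added after their values were seen. So were the fold changes of Ctsa, Ctsf, Ctsl, Neu1 and Idua, which are outside the rule. Genes, lists and comparisons were chosen with earlier results of these data known.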

Additional observations from a re-analysis of the deposited data

How the results depend on the processing

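How many of the 34 genes passed changed with the tool, the filter and single mice. With both thresholds, the count between db/db and db/m mice, 0 in edgeR, was 1 with DESeq2, with no filter on low counts and with voom and library weights (each time Glb1), and 0 to 1 when each mouse was left out (1 without db/m replicate 2). At the adjusted p alone it was 3 with DESeq2 (Ctsh, Glb1 and Fuca1), 1 with no filter, 1 with voom and 0 to 1 without single mice. In treated against non-diabetic mice it was 4 with DESeq2 (Glb1, Gaa, Ids and Fuca1), 2 with only the 2 groups compared (Glb1 and Ids), 10 with voom and 0 to 2 without single mice (2 without db/db replicate 3, 1 without db/db-dapa replicate 1). For treated against untreated db/db mice it was 1 with voom (Psap) and 0 to 2 without single mice (2 without db/db replicate 3). Over all genes at the adjusted p alone, edgeR called 261, 204 and 0 genes in the 3 comparisons, DESeq2 797, 996 and 21, and voom 439, 4884 and 899. With both thresholds the counts were 194, 164 and 0 for edgeR, 363, 507 and 13 for DESeq2, and 1619 and 449 for voom in the comparisons that include treated mice. For the second comparison, at the adjusted p alone, the count was 368 with no filter, 1492 with only its 2 groups, 53 with limma on log2(CPM + 0.1) and 14 (without db/db-dapa replicate 2) to 1649 (without db/db replicate 3) without single mice. For the first it was 117 with only its 2 groups, 153 with limma on log2(CPM + 0.1) and as low as 85 without db/m replicate 1, and for the third 419 without db/db replicate 3. The cause was not tested.

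The median log2 fold change between db/db and db/m mice was -0.0158 with total counts in place of TMM, which moved the median of all genes from 0.02 to 0.13, and -0.19 to -0.0471 without single mice (highest without db/db replicate 3). In treated against non-diabetic mice it was -0.20 with voom, -0.0404 with the length trend removed and -0.15 to -0.0427 without single mice (highest without db/db-dapa replicate 2). For treated against untreated db/db mice it was -0.02 to 0.10 without single mice. It turned from 0.04 to -0.027 with upper-quartile scaling and to -0.025 with total counts. The median of all genes was -0.073 under both of these scalings. The replicate block gave 0 genes that passed in every comparison, with medians of -0.14, -0.13 and 0.04; same-numbered mice had correlated deviations of -0.32 to 0.56, so the numbers were not taken as pairs, and 4 of 9 mice correlated best with their own number. Of the named values, 16 of 240, 3 of 340 and 5 of 220 changed sign, none of them past the threshold: those of Ctss, Lamp2, Lipa, Mcoln1 and Tfeb in the first comparison, Mcoln1 in the second, and Cd63, Mcoln1 and Ppt1 in the third. Leaving out 1 mouse moved 9 of 12, 6 of 17 and 9 of 11 named fold changes by over 1.5 times or turned their sign. By all exonic bases, Lgmn replaced Cd63 among the 3 highest per length.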

Other observations

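Of the 34 other lysosomal hydrolases, groups did not overlap for 2 that were higher and 6 that were lower in db/db than in db/m mice (8.28% and 8.13% of all genes). In db/db-dapa against db/m mice these counts were 8 and 9 (14.4% and 13.7% of all genes). The genes named here did not pass the test and were picked after their values were seen. Dpp7, a dipeptidyl peptidase of the lysosome, was at 166, 156 and 158 CPM in the db/m mice, 135, 89.8 and 66.3 in the db/db mice and 102, 77.3 and 62.3 in the db/db-dapa mice. Ppt2, a thioesterase related to Ppt1, was at 196, 170.5 and 199 CPM in the db/m mice, 95.2, 103 and 147 in the db/db mice and 139, 119 and 134 in the db/db-dapa mice. For both, all diabetic mice lay below all db/m mice, as for Galns and Glb1. The 3 lowest values of Dpp7 were those of db/db replicate 3 and db/db-dapa replicates 2 and 3, the libraries in which short transcripts were low. Hyal1, a hyaluronidase, was at 4.25, 3.49 and 0.666 CPM in the db/m mice, 3.06, 5.202 and 17.7 in the db/db mice and 10.6, 11.4 and 15.9 in the db/db-dapa mice, with every treated mouse above every db/m mouse and db/db replicate 3 the highest of the untreated.

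Among genes of enzyme sorting, Igf2r, the large mannose 6-phosphate receptor, was at 164, 177 and 98.8 CPM in the db/m mice, 227, 142 and 309 in the db/db mice and 182, 263 and 286 in the db/db-dapa mice. The small receptor M6pr was at 217, 216 and 166 CPM in the db/m mice, 154, 137 and 175 in the db/db mice and 166, 180.4 and 199.5 in the db/db-dapa mice. The 3 highest values of Igf2r were those of db/db replicate 3 and db/db-dapa replicates 2 and 3, the libraries in which long transcripts were high.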
